A study of Homo sapiens with 8 samples.

Results

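CCDC28B, its paralogue CCDC28A and the 8 subunits of the BBSome (BBS1, BBS2, BBS4, BBS5, BBS7, BBS9, TTC8 and BBIP1) were followed in PC3 cells silenced for IER5L. The 10 genes were taken by symbol from a table of 58051 genes, and all 10 were among the 16959 genes with enough counts to be tested. CCDC28B was chosen by its fall in these samples, so its difference between the conditions is given as a description without a test. The other 9 genes were included as its paralogue and as the complex it is known to modify.

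PC3 is an established human prostate cancer cell line. The cells were transduced by lentivirus with a non-targeting hairpin (shScramble) or with the sh2 hairpin against IER5L (shIER5L), and all cells, controls included, were selected with puromycin. RNA was sequenced from 4 biological replicates of each condition. Only 1 hairpin against IER5L was sequenced, so the loss of IER5L and other effects of that hairpin cannot be told apart in these data.

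The BBSome is a coat complex that carries membrane proteins, among them G protein-coupled receptors, into and out of the primary cilium, the antenna-like organelle of most cell types. It is brought to membranes by the small GTPase ARL6, travels with the intraflagellar transport (IFT) trains, and is defective in Bardet-Biedl syndrome. CCDC28B is a coiled-coil protein known as a modifier of that syndrome, and it has been linked to the mTORC2 kinase complex through the subunit MAPKAP1 (SIN1) and to the motor protein kinesin-1.

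The sequence of the sh2 hairpin is shown because stretches of it also occur in transcripts of several of the 10 genes. The full match lies in the coding sequence of IER5L, at chr9:129176988-129177008 of hg38 on the minus strand. In the first line the capitals mark the heptamer CATCTCA, and in the others the letters shared with the hairpin, read on the strand of the transcript.
sh2 IER5L: gacgcgtccaaCATCTCAaac
BBIP1, longest shared run: aagtccattAACATCTCAAAgaacaacgt
BBS7, longest shared run: ggtgggagtAACATCTCAgaagactat
BBS9, 3′ UTR site: gtttaataaagCATCTCAttgtcaaataa

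Among CCDC28A and the BBSome subunits, the longest run shared with the hairpin was the 11 bases in the 5′ UTR of BBIP1 (chr10:110907780-110907790, minus strand). It was found in 3 of the 15 annotated transcripts of BBIP1, 2 of them coding. Runs of 9 bases followed, of which that of BBS7 lay in its coding sequence (chr4:121868030-121868038, minus strand). The longest 3′ UTR of BBS9 held CATCTCA at 2 places, that of TTC8 at 1 and that of BBS1 at 1. The place in BBS1 (chr11:66531724-66531730) is coding sequence in another annotated transcript. Of the longest 3′ UTRs of 12701 tested protein-coding genes, 18.9% held CATCTCA. Another heptamer, TCTCAAA, lies near the end of the hairpin and would face the first bases of a guide strand that is its reverse complement. It was found at 1 place in the longest 3′ UTR of BBS2 and at 1 in that of TTC8, against 28.4% of all. The place in BBS2 (chr16:56466648-56466654) lies outside the exons counted for that gene. All of these are matches of letters and do not show binding of the hairpin.

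The counts of IER5L, the targeted gene, were 83, 154, 140 and 72 with shScramble and 62, 72, 49 and 29 with shIER5L, in the order of the replicate numbers, which is kept throughout. As normalized counts (CPM, counts scaled to a common library size), every shIER5L sample was below every shScramble sample. The log2 fold change was -1.08 (SE 0.248, adjusted p = 0.0212 by edgeR's quasi-likelihood test), and the adjusted p exceeded 0.05 when shScramble replicate 2, shScramble replicate 3 or shIER5L replicate 3 was left out (0.0937, 0.0780 and 0.0891).

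The samples summed to between 21512128 and 24662190 counts. Keratins and other markers known from PC3 cells (KRT8, KRT18, KRT19, EPCAM, VIM, CD44) ranged from 25.7 to 568.4 CPM, and 0 of these 6 had an adjusted p under 0.05. KLK2 and KLK3, targets of the androgen receptor, were at 0 counts in every sample, as was the T cell marker CD3E, whereas PECAM1, a marker of endothelium, reached 10.4 CPM in shScramble and 9.37 CPM in shIER5L samples. In bulk RNA, fewer cells that express a gene and less RNA per cell cannot be told apart. Across all genes tested, 666 had an adjusted p under 0.05, which is 3.93% of 16959.

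CCDC28B (ENSG00000160050) lies on the plus strand of chromosome 1, at chr1:32200386-32205387. Its counts were 48, 57, 63 and 54 in the shScramble and 17, 28, 19 and 25 in the shIER5L samples. As normalized counts these were 2.26, 2.41, 2.53 and 2.42 CPM against 0.75, 1.18, 0.79 and 1.14 CPM. The highest shIER5L sample was below the lowest shScramble sample by 1.09 CPM, and the 4 shScramble samples lay closer to each other than the 4 shIER5L samples. The mean was 2.41 ± 0.109 CPM (SD, n = 4) in shScramble and 0.965 ± 0.226 CPM (SD, n = 4) in shIER5L cells, a ratio of 0.401.

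The log2 fold change of CCDC28B was -1.32 (SE 0.215, 95% interval -1.77 to -0.86), and 8 of the 16959 genes had a lower one. Of all genes tested, 0.366% had an adjusted p under 0.05 with a log2 fold change of -0.5 or lower, and in 10.9% the 4 samples of one condition did not overlap the 4 of the other. Since the gene was selected on this difference, nothing is read from its place among them. Leaving out each of the 8 samples in turn gave log2 fold changes between -1.43 and -1.22. The values rest on 222 counts over the shScramble and 89 over the shIER5L samples, and reads of a pair were counted one by one, so that fewer fragments stand behind them.

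CCDC28A (ENSG00000024862), the paralogue of CCDC28B, lies at chr6:138773509-138793319. Its levels were 17.5, 19.1, 15.5 and 18.1 CPM in the shScramble and 19.2, 16.5, 19.7 and 18.0 CPM in the shIER5L samples. The conditions overlapped, with samples of both between 16.5 and 19.1 CPM. The log2 fold change was 0.06 (95% interval -0.13 to 0.26, adjusted p = 0.798), an interval that does not include a fall of the size seen for CCDC28B.

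**Figure D1:**
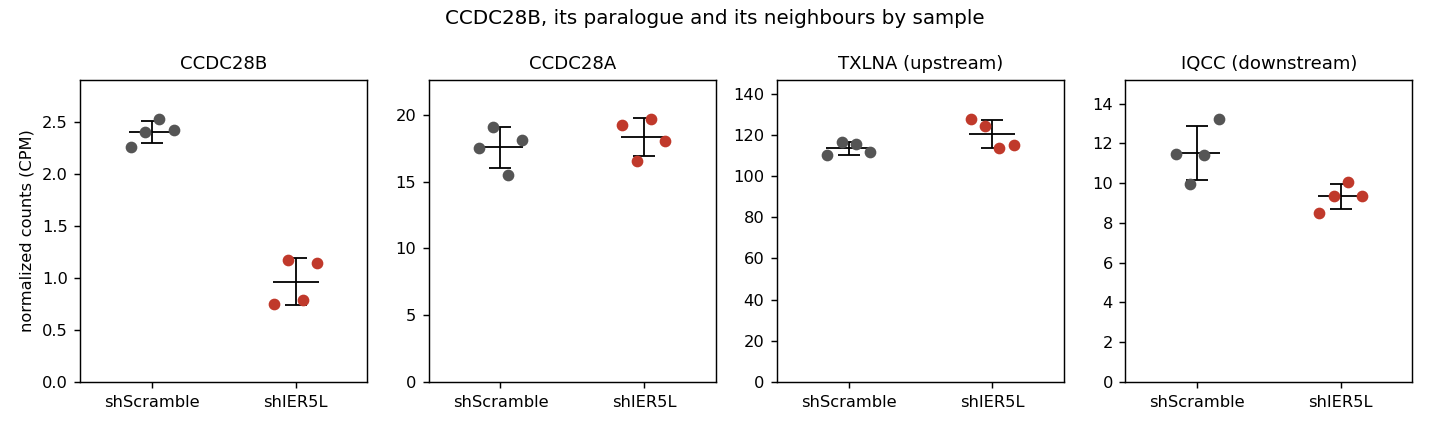
Normalized counts (CPM, vertical axis from 0) of CCDC28B, CCDC28A and the genes on either side of CCDC28B in the 4 shScramble (grey) and 4 shIER5L (red) samples, with mean and SD. The shIER5L samples of CCDC28B, at 0.75 to 1.18 CPM, lie below its shScramble samples, at 2.26 to 2.53 CPM, while the conditions overlap in the other 3 panels.

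The annotated genes within 20 kb of CCDC28B were compared in the same fit. TXLNA, which ends upstream of CCDC28B on the same strand, ranged from 110.2 to 116.5 CPM in shScramble and from 113.7 to 127.6 CPM in shIER5L cells (log2 fold change 0.08, adjusted p = 0.448). IQCC, which starts downstream on the same strand at position 32205661, had 11.5, 9.93, 11.4 and 13.2 CPM against 8.51, 9.37, 10.1 and 9.36 CPM. IQCC was lower on average in shIER5L cells, but its conditions overlapped in the sample of 10.1 CPM and its change did not pass the test (log2 fold change -0.30, SE 0.107, unadjusted p = 0.0124, adjusted p = 0.149). Farther downstream, TMEM234 and EIF3I had log2 fold changes of 0.0063 and -0.01 (adjusted p = 0.992 and 0.920), and DCDC2B had too few counts to be tested.

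Exons of the antisense gene ENSG00000224066 cover 571 bases, 20.3%, of the exons of CCDC28B. The counting command has no strand option and leaves out reads that fall on exons of more than 1 gene, so reads in those bases went to neither gene, and reads of either strand elsewhere were assigned by position. ENSG00000224066 itself had 0, 1, 3 and 2 counts in shScramble and 6, 3, 6 and 2 counts in shIER5L samples, too few to be tested. Its counts overlapped between the conditions, and its part in the value of CCDC28B was not tested.

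Among the 8 BBSome subunits, 4 had a positive and 4 a negative log2 fold change, with a median of -0.00031 against 0.002 over all genes tested. In 0 of the 8 the adjusted p was under 0.05 by edgeR's quasi-likelihood test, against 3.93% of all genes tested, and the likelihood ratio test, limma voom and DESeq2 also called 0. At an unadjusted p under 0.05 there was 1 (12.5%, against 16.5% of all genes tested), BBS9. In each of the 8 genes the shIER5L samples overlapped the shScramble samples, while of all genes tested 10.9% showed no overlap.

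BBS2, BBS7 and BBS9 form the core that is assembled first. BBS2 (chr16:56466836-56520283, minus strand) had 34.9, 34.9, 32.6 and 35.0 CPM in the shScramble and 31.5, 31.3, 36.5 and 32.4 CPM in the shIER5L samples. Of the shIER5L samples, 3 were below all shScramble samples and replicate 3 was above all of them. Its log2 fold change was -0.06 (95% interval -0.21 to 0.09, adjusted p = 0.742).

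BBS7 (chr4:121824440-121870497, minus strand) had 45.4, 40.5, 45.9 and 44.9 CPM against 43.6, 44.4, 47.9 and 50.9 CPM. In shIER5L replicates 3 and 4 it was above every shScramble sample, and the others lay within their range. Its log2 fold change was 0.08 (95% interval -0.06 to 0.22, adjusted p = 0.630).

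BBS9 (chr7:33129244-33606068, plus strand), the subunit that holds the core together, had 33.3, 27.6, 33.7 and 32.7 CPM in shScramble and 30.2, 28.6, 27.2 and 26.1 CPM in shIER5L cells. Apart from shScramble replicate 2, which was lower than 2 of the shIER5L samples, the shScramble values lay above all shIER5L values. Its log2 fold change of -0.18 (SE 0.0786, 95% interval -0.35 to -0.02) had an unadjusted p of 0.0340 and an adjusted p of 0.251 by edgeR's quasi-likelihood test, so it did not pass the threshold. The means were 31.8 ± 2.81 and 28.0 ± 1.75 CPM (SD, n = 4), a ratio of 0.881.

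BBS4 and TTC8 (also named BBS8) are built of tetratricopeptide repeats and brace the core. BBS4 (chr15:72686179-72738476, plus strand) had 22.4, 19.3, 21.0 and 19.0 CPM against 22.5, 23.1, 22.4 and 22.2 CPM. The shIER5L samples lay close together around the highest shScramble sample, 2 of them above it. On the log2 scale the difference was 0.14 (95% interval -0.02 to 0.31, adjusted p = 0.388).

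TTC8 (chr14:88824153-88881078, plus strand) had levels of 59.7, 55.1, 54.4 and 57.8 CPM in shScramble and 56.4, 54.3, 62.0 and 57.8 CPM in shIER5L cells. The ranges of the conditions coincided apart from the shIER5L sample at 62.0 CPM and the one at 54.3 CPM, just under the lowest shScramble sample. On the log2 scale the difference was 0.02 (95% interval -0.10 to 0.15, adjusted p = 0.907).

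BBIP1 (chr10:110898730-110919274, minus strand), the smallest subunit, had 20.3, 20.9, 19.99 and 22.9 CPM against 19.3, 19.5, 23.0 and 21.1 CPM. Samples of both conditions were found at the low and the high end, and the log2 fold change was -0.02 (95% interval -0.20 to 0.15, adjusted p = 0.937). Exons of genes on the other strand, mainly PDCD4, cover 20.2% of its exon bases, and PDCD4 had between 4667 and 5954 counts per sample.

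BBS1, the subunit that contacts ARL6, and BBS5, which carries pleckstrin homology domains, had few counts. BBS1 (chr11:66510606-66533627, plus strand) had 46, 36, 36 and 32 counts in shScramble and 24, 42, 41 and 34 counts in shIER5L samples, which were 2.17, 1.52, 1.44 and 1.43 CPM against 1.06, 1.76, 1.71 and 1.55 CPM. The highest value was in shScramble replicate 1, the lowest in shIER5L replicate 1, and the other 6 lay between them. Among those 6, the shIER5L samples, at 1.55 to 1.76 CPM, were above the shScramble samples, at 1.43 to 1.52 CPM. With a log2 fold change of -0.10 (95% interval -0.60 to 0.39, adjusted p = 0.886), BBS1 did not pass the test.

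BBS5 (chr2:169479178-169506655, plus strand) had 30, 49, 57 and 17 counts in shScramble and 60, 49, 36 and 34 counts in shIER5L samples. These were 1.41, 2.07, 2.29 and 0.762 CPM against 2.65, 2.06, 1.498 and 1.55 CPM, so that both the lowest value and the second highest were from shScramble. With a log2 fold change of 0.23 (95% interval -0.39 to 0.86, adjusted p = 0.771), neither did BBS5. The coefficient of variation within shScramble was 42.2% for BBS5 and 21.5% for BBS1, against 4.55% for CCDC28B. Within shIER5L it was 27.6% for BBS5, 21.1% for BBS1 and 23.4% for CCDC28B. Since CCDC28B was chosen on its values in these samples, nothing is read from its spread.

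**Figure D2:**
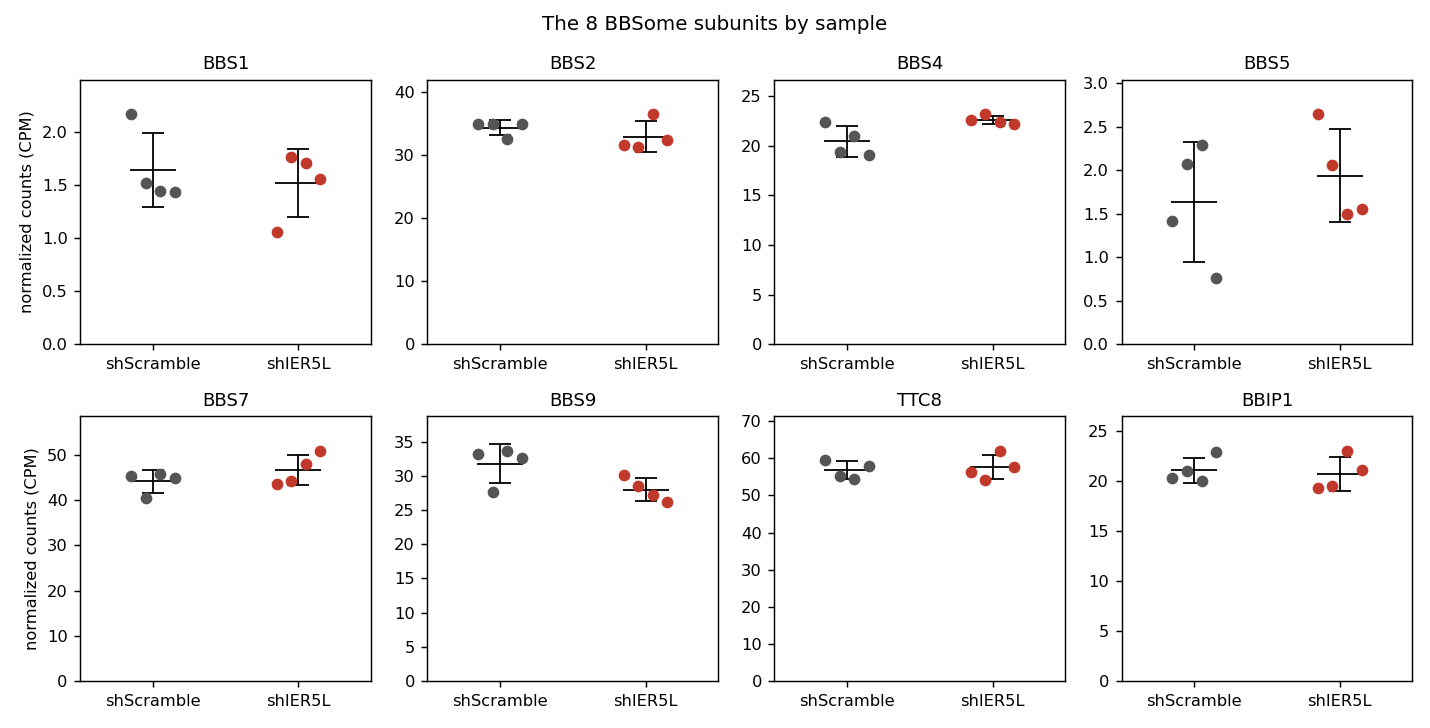
Normalized counts (CPM, each vertical axis from 0) of the 8 BBSome subunits in the 4 shScramble (grey) and 4 shIER5L (red) samples, with mean and SD. The conditions overlap in all 8 panels, and the scatter is widest in BBS1 and BBS5, which are under 3 CPM.

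For the 7 genes with at least 10 CPM in every sample (CCDC28A and the subunits other than BBS1 and BBS5), log2 fold changes lay between -0.18 and 0.14 and their 95% intervals between -0.35 and 0.31. These genes had 371 to 1490 counts per sample and coefficients of variation from 1.89% to 8.83% within a condition. A change of 0.5 on the log2 scale, the size used to call genes, lay outside all 7 intervals. The interval of BBS1 included a fall of that size but not a rise, and that of BBS5 a rise but not a fall.

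**Figure D3:**
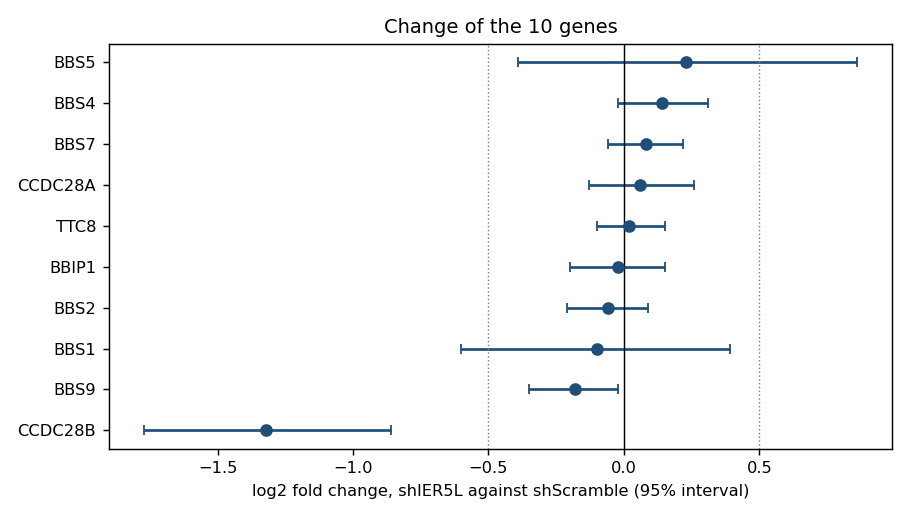
Log2 fold change of shIER5L against shScramble (horizontal axis) with its 95% interval for the 10 genes, and dotted lines at -0.5 and 0.5. CCDC28B, chosen by this difference, is at -1.32, the 7 genes with at least 10 CPM are between -0.18 and 0.14, and BBS1 and BBS5 have the widest intervals of the rest.

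Levels were compared between genes as CPM per kb of exon. In shScramble cells CCDC28A was highest, at 11.7 ± 1.00 CPM per kb (SD, n = 4), followed by BBS7 at 9.15, TTC8 at 9.07, BBS9 at 5.14, BBS4 at 4.92, BBS2 at 4.12 and BBIP1 at 2.60. CCDC28B, at 0.854 ± 0.0388 CPM per kb, was below all of these, and BBS5 and BBS1 followed at 0.359 and 0.267. Neighbours in this order had separate sample ranges except BBS7 and TTC8, BBS9 and BBS4, and BBS5 and BBS1.

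In shIER5L cells CCDC28B was at 0.342 CPM per kb, with samples from 0.266 to 0.417. There its range overlapped those of BBS5, from 0.329 to 0.581, and BBS1, from 0.172 to 0.287, while in shScramble cells it was above both. Exons of other genes cover 64.5% of the exon bases of BBS1, mostly those of ENSG00000256349 on the same strand, which had 0 counts in every sample, and they cover 21.9% of those of BBS5. Per kb of bases that no other gene covers, BBS1 was at 0.753 and BBS5 at 0.459 in shScramble cells, so their order turned, and CCDC28B at 1.07 was still above both. In shIER5L cells on that scale the mean of CCDC28B, 0.429, was below those of BBS5, 0.545, and BBS1, 0.697. Its samples there, from 0.334 to 0.524, overlapped those of BBS5, from 0.421 to 0.744, and BBS1, from 0.485 to 0.809.

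**Figure D4:**
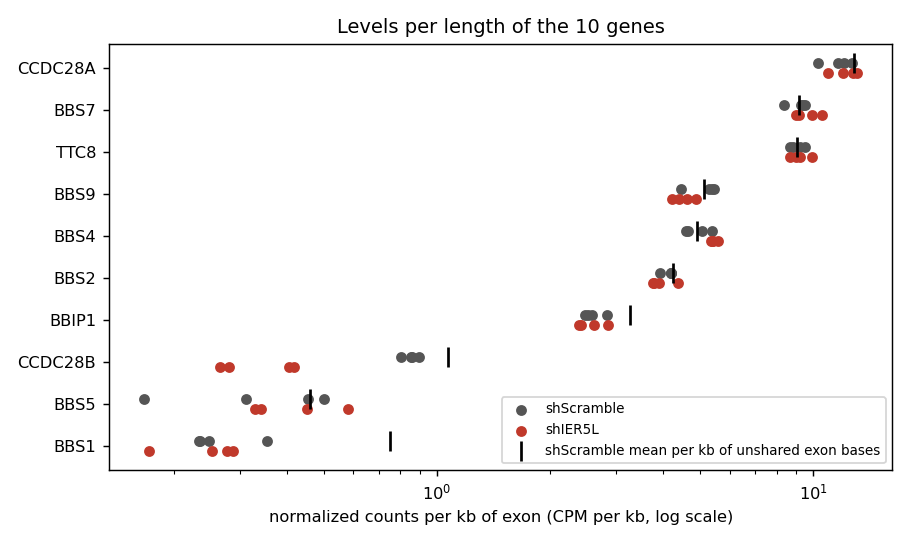
Normalized counts per kb of exon (CPM per kb, log scale) of the 10 genes, with 1 point per sample for shScramble (grey) and shIER5L (red), and a bar for the shScramble mean per kb of exon bases shared with no other gene. CCDC28B lies between BBIP1 and BBS5 in shScramble cells and among BBS5 and BBS1 in shIER5L cells, and the bar of BBS1 lies farthest from its points.

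The genes that build, recruit and carry the BBSome, or that are known partners of CCDC28B, were read from the same fit. Together with the subunits these lists held 82 genes, of which 81 were tested, and 30 had a positive and 51 a negative log2 fold change, with a median of -0.026. In 1 of the 81 (1.23%, against 3.93% of all genes tested) the adjusted p was under 0.05. At an unadjusted p under 0.05 there were 15 (18.5%, against 16.5% of all genes tested), and in 7 (8.64%, against 10.9%) the conditions did not overlap. None of these shares is a result about the lists.

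The gene that passed the test was TULP3, an adaptor of the IFT-A complex that brings G protein-coupled receptors into the cilium. Its levels were 15.1, 9.93, 12.8 and 13.7 CPM with shScramble and 18.4, 18.9, 18.2 and 17.3 CPM with shIER5L. Every shIER5L sample was above every shScramble sample, and the shIER5L samples were the closer to each other. TULP3 rose by 0.50 on the log2 scale (SE 0.110, adjusted p = 0.0160 by edgeR's quasi-likelihood test), and the adjusted p was 0.0544 without shScramble replicate 3 and 0.0536 without shIER5L replicate 3. The other 6 members of the IFT-A list did not pass, and the list's median was -0.031.

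Among the 11 chaperonins that assemble the core, 0 had an adjusted p under 0.05, against 3.93% of all genes tested. The unadjusted p was under 0.05 in 1 (9.09%, against 16.5%). Their log2 fold changes ran from -0.17 for BBS10 (adjusted p = 0.203) to 0.11 for MKKS (adjusted p = 0.307). These are both components of the chaperonin-like complex that is specific to the BBSome.

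Among the 11 genes of recruitment and regulation, 0 passed with the adjusted p, against 3.93% of all genes tested. An unadjusted p under 0.05 was found in 4 (36.4%, against 16.5% of all genes tested), a share of a short list that was not tested. ARL6, the GTPase that brings the BBSome to membranes, is named here after its values were seen: it had 32.7, 28.0, 33.1 and 32.0 CPM against 26.0, 26.4, 28.8 and 25.5 CPM (log2 fold change -0.24, SE 0.0748, adjusted p = 0.100). Its shIER5L samples lay below the shScramble samples except replicate 3, which was above shScramble replicate 2. LZTFL1, which keeps the BBSome out of the cilium, is also named after its values were seen. It was the 1 gene of this list whose conditions did not overlap (9.09%, against 10.9% of all genes tested). It had 26.3, 26.59, 27.74 and 26.44 CPM against 23.72, 25.04, 25.05 and 21.19 CPM (log2 fold change -0.17, SE 0.0745, adjusted p = 0.254). The extremes of the list were CEP19, a centriolar protein that recruits the GTPase RABL2, at 0.21 (adjusted p = 0.227) and RABL2A at -0.77 (SE 0.305, adjusted p = 0.208). RABL2A had 9 to 36 counts per sample and a near-identical copy, RABL2B (log2 fold change -0.08, adjusted p = 0.905), so that its count is uncertain.

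Of the 17 genes of IFT-B, the part of the train that moves the BBSome, 0 passed with the adjusted p, against 3.93% of all genes tested. The unadjusted p was under 0.05 in 3 (17.6%, against 16.5%). IFT74 was highest among the IFT-B genes at 0.21 (30.9 to 35.8 CPM against 36.6 to 42.0 CPM, adjusted p = 0.123) and IFT22 lowest at -0.20 (adjusted p = 0.111). IFT172, which with IFT74 also stood at the extremes of the 10 other Bardet-Biedl genes, 0 of which passed, was at -0.18 (adjusted p = 0.122). The conditions did not overlap in these 3 of the IFT-B genes (17.6%, against 10.9% of all genes tested), a share that was not tested. In all 3 the adjusted p missed the threshold.

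Of the 10 mTORC2 and kinesin-1 genes, 9 were tested, PRR5 having too few counts. The adjusted p was under 0.05 in 0 of them, against 3.93% of all genes tested. The unadjusted p was under 0.05 in 4 (44.4%, against 16.5% of all genes tested), again a share that was not tested. RICTOR, the defining subunit of mTORC2, was highest at 0.11 (adjusted p = 0.288), and MLST8, which mTORC2 shares with mTORC1, was lowest at -0.30 (SE 0.108, adjusted p = 0.157). MLST8 had 39.8, 43.2, 51.4 and 37.1 CPM in shScramble and 37.2, 38.3, 36.4 and 27.5 CPM in shIER5L cells, and the conditions overlapped at 37.1 to 38.3 CPM. MAPKAP1 is the subunit through which CCDC28B has been linked to mTORC2. It was the 1 tested gene of this list whose conditions did not overlap (11.1%, against 10.9% of all genes tested). It is named after its values were seen: 218.6, 224.5, 215.7 and 216.8 CPM against 200.9, 215.5, 203.3 and 203.2 CPM. Its log2 fold change was -0.09 (SE 0.0407, adjusted p = 0.282 by edgeR's quasi-likelihood test), so it did not pass.

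Of the 11 genes of ciliary Hedgehog signalling, 0 passed with the adjusted p, against 3.93% of all genes tested. The unadjusted p was under 0.05 in 1 (9.09%, against 16.5%). The receptor SMO was highest at 0.20 (adjusted p = 0.491) and GLI1, a transcriptional target and effector of the pathway, lowest at -0.64 (95% interval -1.65 to 0.38, adjusted p = 0.568). GLI1 had 3 to 31 counts per sample, so its interval is wide. GLI3 is also named after its values were seen. It was the 1 gene of this list whose conditions did not overlap (9.09%, against 10.9% of all genes tested). Its log2 fold change was -0.26 (SE 0.0904, adjusted p = 0.146 by edgeR's quasi-likelihood test), so it did not pass.

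**Figure D5:**
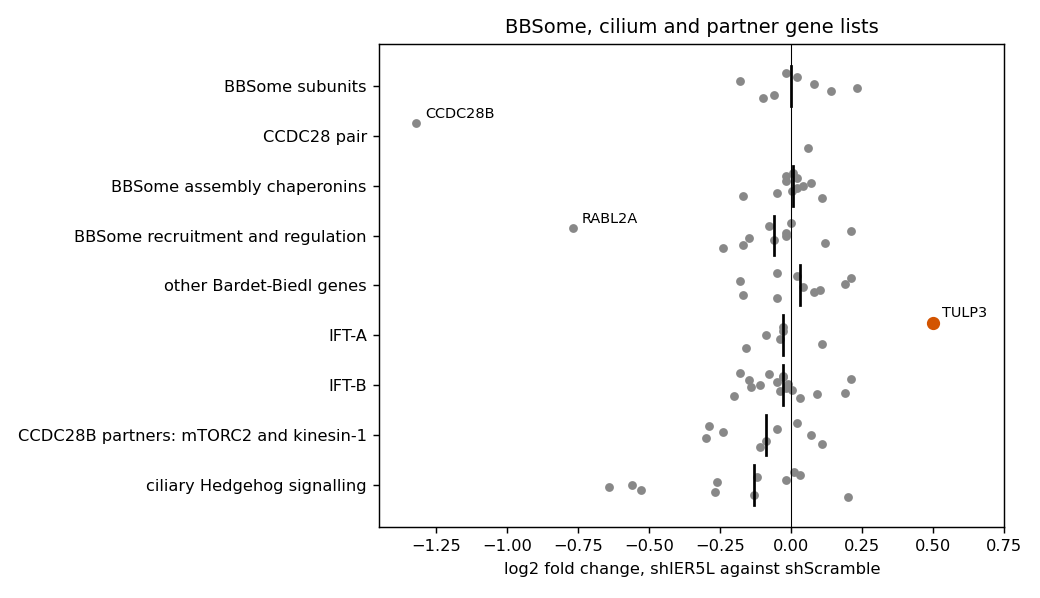
Log2 fold change of shIER5L against shScramble (horizontal axis) for each tested gene of the lists (rows), with a black bar at the median of lists of more than 2 genes and an orange point for an adjusted p under 0.05 (CCDC28B, which was chosen by its fall, is given no test). TULP3 at 0.50 is the single orange point, and CCDC28B at -1.32 lies apart from the other genes shown.

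The 3 genes with the profile most like that of CCDC28B over the 8 samples were RCC2, CENPM and RNVU1-4. Likeness was measured as the root mean square difference of log2 CPM, each gene centred on its own mean, among genes with at least 1 CPM on average, and it was 0.21, 0.213 and 0.296. RCC2, a regulator of chromosome condensation and Rac signalling, had 202.9 to 215.9 CPM in shScramble and 87.4 to 101.6 CPM in shIER5L cells. CENPM, a centromere protein, had 18.1 to 21.5 CPM against 7.49 to 10.4 CPM, and RNVU1-4 is a variant of the U1 small nuclear RNA, with near-identical copies that make its count uncertain. For the other 9 genes the difference from CCDC28B was between 0.595 (BBS9) and 0.945 (BBS5), with a median of 0.681 over the genes compared. The measure includes the difference between the conditions by which CCDC28B was chosen.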

How the data were processed

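The authors aligned paired-end reads to hg38 with STAR 2.7.5c, removed duplicates with SAMtools 1.15 and counted reads on exons with featureCounts 2.0.3. They deposited raw counts. The counting command has no strand option and counts the 2 reads of a pair singly (among counts of 1 to 20, a median of 65.6% were even). The study's methods name a ribosomal depletion kit, the labels a poly(A) kit. The annotation release is not given in the sources used here. Symbols and transcripts came from GENCODE v44, in which 56948 of 58051 identifiers matched. The hairpin came from the study's supplementary table.

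Counts were filtered with filterByExpr, scaled by TMM and tested with the quasi-likelihood test of edgeR 4.0.16 in R 4.3.3 (limma 3.58.1, DESeq2 1.42.0 and Python 3.11.15 were also used), with no term besides condition and p-values adjusted over 16959 genes by Benjamini-Hochberg. A gene was called at an adjusted p under 0.05, and for the count of differentially expressed genes also at a log2 fold change of 0.5 or more in either direction. Intervals are 95% intervals of the fit. On simulated counts of 16959 genes in this comparison, 166 of 200 genes changed by 1 on the log2 scale were recovered and 10 unchanged genes called. The replicates are those the labels name as biological, with 4 plates per condition in the methods, which do not say whether these were separate transductions, and p-values measure the spread between them.

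Members and lists were chosen with earlier results of these data known. Named genes are the 10 members, IER5L, the called genes or otherwise both extremes of each list, the genes within 20 kb of CCDC28B, and the 3 most alike in profile. ARL6, LZTFL1, MAPKAP1 and GLI3 were named outside this rule. Matches of the hairpin in CCDC28B are not reported here. Alternatives were other scalings, filters and tests, a replicate block, counts halved, and each sample left out. The proteome was not analysed here.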

Additional observations from a re-analysis of the deposited data

Results flagged for a closer look

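In 5 of 66 groups of 4 samples, 1 sample lay far from the other 3. The groups were those of genes named above, but not of all of them (MAPKAP1 was not included). Chance alone marks about 1 group in 20. BBS1 was at 2.17 CPM in shScramble replicate 1 and at 1.43 to 1.52 CPM in the other 3. BBS2 was at 32.6 CPM in shScramble replicate 3 and at 34.9 to 35.0 CPM in the others. BBS9 was at 27.6 CPM in shScramble replicate 2 against 32.7 to 33.7 CPM, and without that sample its log2 fold change was -0.24. IFT172 was at 44.8 CPM in shIER5L replicate 1 against 39.9 to 40.7 CPM. EIF3I, a neighbour of CCDC28B, was at 530.4 CPM in shIER5L replicate 3 against 557.3 to 559.9 CPM. Each of the 5 values came from a different sample.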

How the results depend on the processing

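Under 10 alternative settings of scaling, filter, test, pairing and counts, the log2 fold change of CCDC28B lay between -1.33 and -1.32, 0 BBSome subunits were called, and the number of differentially expressed genes lay between 129 and 193 against 134. With each sample left out in turn that number lay between 86 and 135, with 86 without shScramble replicate 3. The number of list genes called, 1 as reported (TULP3), was 2 without a filter (with MLST8) and 3 with DESeq2 (with ARL6 and IFT22), and 0 to 2 with a sample left out: 0 without shScramble replicate 3 or shIER5L replicate 3, and 2 without shIER5L replicate 2 (with KLC2). Log2 fold changes near 0 turned sign in some of the fits with a sample left out, in which BBS1 ran from -0.183 to 0.051, TTC8 from -0.022 to 0.05 and BBIP1 from -0.084 to 0.02. The sign differed from the reported one for BBS1 without shScramble replicate 1 or shIER5L replicate 1, for TTC8 without shIER5L replicate 3, and for BBIP1 without shScramble replicate 4, shIER5L replicate 1 or shIER5L replicate 2. The cause was not tested.

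Samples with the same replicate number did not deviate together in all 4 pairs (correlations -0.0478, 0.0977, -0.0415 and 0.144), and 3 of 8 samples correlated best with their own number, so the numbers were not taken to pair samples. With the replicate number as a block, 2 list genes were called (TULP3 and MLST8) and 137 genes were differentially expressed.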
